A study of Homo sapiens with 10 samples.

Results

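The genes of mitochondrial transcription and mitochondrial DNA (mtDNA) maintenance were examined in T24 and T24R2 cells. These were POLRMT, TFAM, TFB1M, TFB2M, TEFM, POLG, POLG2, TWNK, SSBP1 and LONP1, which are 10 of the 61533 genes in the count tables and of the 16181 genes with enough counts to be tested. The list was selected with measured values of this same comparison in view, so the differences between the lines that chose these genes are given as a description and without a p-value. T24 is a human bladder cancer cell line. T24R2 was derived from T24 by serial exposure to cisplatin, a platinum drug that forms adducts with DNA. Each line had 5 replicate RNA-seq libraries from day 3 of culture. The study's methods keep T24R2 in cisplatin, whereas the labels list the same serum-containing RPMI medium without the drug for both lines, so effects of the line and of the drug cannot be told apart here. T24R2 is a single derived line, so each difference is one between 2 cell lines. The labels and the sequencing methods do not say whether the 5 replicates of a line came from separate cultures, so p-values measure only the spread between these libraries, which may be technical.

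The human mitochondrial genome is a small circle that encodes mRNAs, rRNAs and tRNAs, and every protein that copies, transcribes and packages it is made from nuclear genes. POLRMT, the mitochondrial RNA polymerase, starts transcription at a light-strand and a heavy-strand promoter with TFAM, which bends promoter DNA, and TFB2M, which helps open it, and it also makes the primers for replication. TEFM keeps the polymerase moving, POLG with POLG2 copies the DNA behind the helicase TWNK, SSBP1 coats the single strands, and the protease LONP1 degrades TFAM that is not bound to DNA.

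Total counts were 9257843 to 10840954 per library. The median log2 fold change over all tested genes was 0.01, and 51.4% of tested genes differed between the lines by the call rule used throughout, a Benjamini-Hochberg adjusted p below 0.05 in edgeR's quasi-likelihood test together with a log2 fold change beyond 0.5 in either direction. The keratins KRT7, KRT8 and KRT18 were abundant in both lines, at means of 691 to 2242 CPM, fragment counts scaled to library size, whereas the urothelial markers UPK1A, UPK1B, UPK3A, KRT5 and KRT20 were each below 0.5 CPM in both. KRT19 went from a mean of 267 to 0.0887 CPM and GATA3 from 22.1 to 0.214 CPM, so these markers of the labelled origin were nearly absent in T24R2. UPK2 went from a mean of 9.90 to 2.74 CPM and PPARG from 75.9 to 26.2 CPM, so both were lower but still detected in T24R2. Of 8 markers of blood, endothelial, stromal and liver cells, the summed level was 10.3 to 14.0 CPM in T24 and 1.78 to 3.84 CPM in T24R2, and ALB was at 0 in all libraries.

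The regulatory sequences of POLRMT, TFB2M and TFB1M are shown because these 3 promoters hold the same recognition letters of NRF1, a nuclear activator of mitochondrial genes, while their mRNAs were lower, higher and at overlapping levels in T24R2. Each window runs from 250 bases before to 50 bases after the start of the gene in RefSeq on GRCh38.p14, 5′ to 3′ on the minus strand, from which all 3 genes are read. They lie at chr19:633488-633787 for POLRMT, chr1:246566212-246566511 for TFB2M and chr6:155314435-155314734 for TFB1M. Capitals mark the NRF1 letters CGCATGCG, which read the same on both strands, and the ETS-family letters CCGGAAG, searched on both strands, and the marked stretches do not overlap.
POLRMT: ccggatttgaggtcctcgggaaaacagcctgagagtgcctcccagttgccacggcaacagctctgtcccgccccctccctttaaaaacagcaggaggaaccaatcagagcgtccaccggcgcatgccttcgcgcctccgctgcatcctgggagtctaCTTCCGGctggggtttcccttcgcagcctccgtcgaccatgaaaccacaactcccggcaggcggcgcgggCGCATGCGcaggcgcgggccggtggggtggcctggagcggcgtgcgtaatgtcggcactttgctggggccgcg
TFB2M: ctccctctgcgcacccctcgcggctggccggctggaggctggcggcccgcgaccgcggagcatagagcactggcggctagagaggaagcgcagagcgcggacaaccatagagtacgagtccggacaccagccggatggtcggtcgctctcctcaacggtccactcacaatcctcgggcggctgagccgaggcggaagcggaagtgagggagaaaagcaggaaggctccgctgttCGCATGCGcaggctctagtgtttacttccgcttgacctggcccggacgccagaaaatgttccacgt
TFB1M: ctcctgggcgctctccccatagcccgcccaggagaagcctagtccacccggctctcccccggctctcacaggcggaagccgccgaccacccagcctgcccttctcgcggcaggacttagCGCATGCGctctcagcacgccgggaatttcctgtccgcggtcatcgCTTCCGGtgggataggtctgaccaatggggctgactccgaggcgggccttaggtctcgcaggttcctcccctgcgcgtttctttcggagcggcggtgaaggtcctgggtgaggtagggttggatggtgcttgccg

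Of the 10 genes, 9 matched the promoter table by symbol, with 12 windows in all. The NRF1 letters were found in 4 of these 9 genes (POLRMT, TFB2M, TFB1M and LONP1) and in 2.02% of 35116 promoters of the same length. The ETS letters were found in 6 (POLRMT, TEFM, TFB1M, POLG2, SSBP1 and LONP1) and in 10.3% of all promoters. A gene was counted if any of its windows matched, and SSBP1 and LONP1 had several, whereas the percentages count single windows. The gene counts and percentages are thus not on the same basis. A match is a stretch of letters and no measured binding site. On the mitochondrial genome, the segment of the control region that holds both transcription promoters is shown since it is where the POLRMT complex starts, from hg38 chrM:380-600 on the plus strand. The capitals mark the first bases of MT-TF, the tRNA gene at chrM:577-647.
Mitochondrial control region: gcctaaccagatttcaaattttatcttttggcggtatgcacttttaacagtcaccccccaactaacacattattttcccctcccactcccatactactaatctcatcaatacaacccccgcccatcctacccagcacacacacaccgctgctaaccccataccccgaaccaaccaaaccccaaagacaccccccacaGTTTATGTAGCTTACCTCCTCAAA

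POLRMT mRNA was 2.20-fold lower in T24R2. The gene lies on the minus strand of chr19:617221-633537 (hg38). Its level was 78.7, 86.1, 81.2, 83.2 and 79.3 CPM in the T24 libraries and 43.9, 33.8, 37.4, 34.1 and 36.6 CPM in the T24R2 libraries. The highest T24R2 library lay far below the lowest T24 library. The T24R2 mean was 45.5% ± 4.96 of the T24 mean (SD, n = 5), a log2 fold change of −1.14 ± 0.07 (SE), and 1953 tested genes, 12.1%, had a fall at least as large. The study lists primers for POLRMT in RT-qPCR, a targeted RNA assay that it ran on candidates differing in both expression and methylation. Its text names no RT-qPCR result for POLRMT. The later methylation assay was run on the candidates whose difference was also seen by RT-qPCR, and no POLRMT primers are listed for it. By these primer lists, the difference in POLRMT was not among those also seen by RT-qPCR, although the text does not say so. Less RNA per cell and fewer cells that express a gene cannot be told apart in bulk libraries, here and for the genes that follow.

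TFB2M and TEFM, the partners of POLRMT in initiation and elongation, were higher in the T24R2 libraries. TFB2M (chr1:246540561-246566261, minus strand) was at 9.65, 10.2, 12.1, 12.9 and 10.5 CPM in T24 and at 20.9, 22.4, 21.9, 25.8 and 22.6 CPM in T24R2, with a log2 fold change of 1.04 ± 0.11. The lines did not overlap and the T24R2 mean was 2.05 times that of T24. TEFM (chr17:30897336-30906238, minus strand) was at 8.93, 9.78, 7.66, 10.0 and 9.94 CPM in T24 and 13.7, 12.4, 11.4, 12.5 and 11.8 CPM in T24R2. Its lines did not overlap either, but the log2 fold change of 0.41 ± 0.12 was below the 0.5 of the call rule.

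TFAM (chr10:58385345-58399220, plus strand), which also packages mtDNA into nucleoids, was at 76.6, 72.1, 77.6, 69.5 and 69.2 CPM in T24 and 53.7, 61.1, 57.2, 54.4 and 61.2 CPM in T24R2. The lines were separate, with a log2 fold change of −0.34 ± 0.06 that was below the 0.5 of the call rule. TFB1M (chr6:155256134-155314493, minus strand) is related to TFB2M but methylates the small-subunit rRNA of the mitochondrial ribosome. It was at 16.1, 18.9, 17.6, 16.1 and 19.9 CPM in T24 and at 13.03, 15.5, 18.3, 19.1 and 17.1 CPM in T24R2, a log2 fold change of −0.09 ± 0.11. TFB1M was the only one of the 10 whose lines overlapped.

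**Figure D1:**
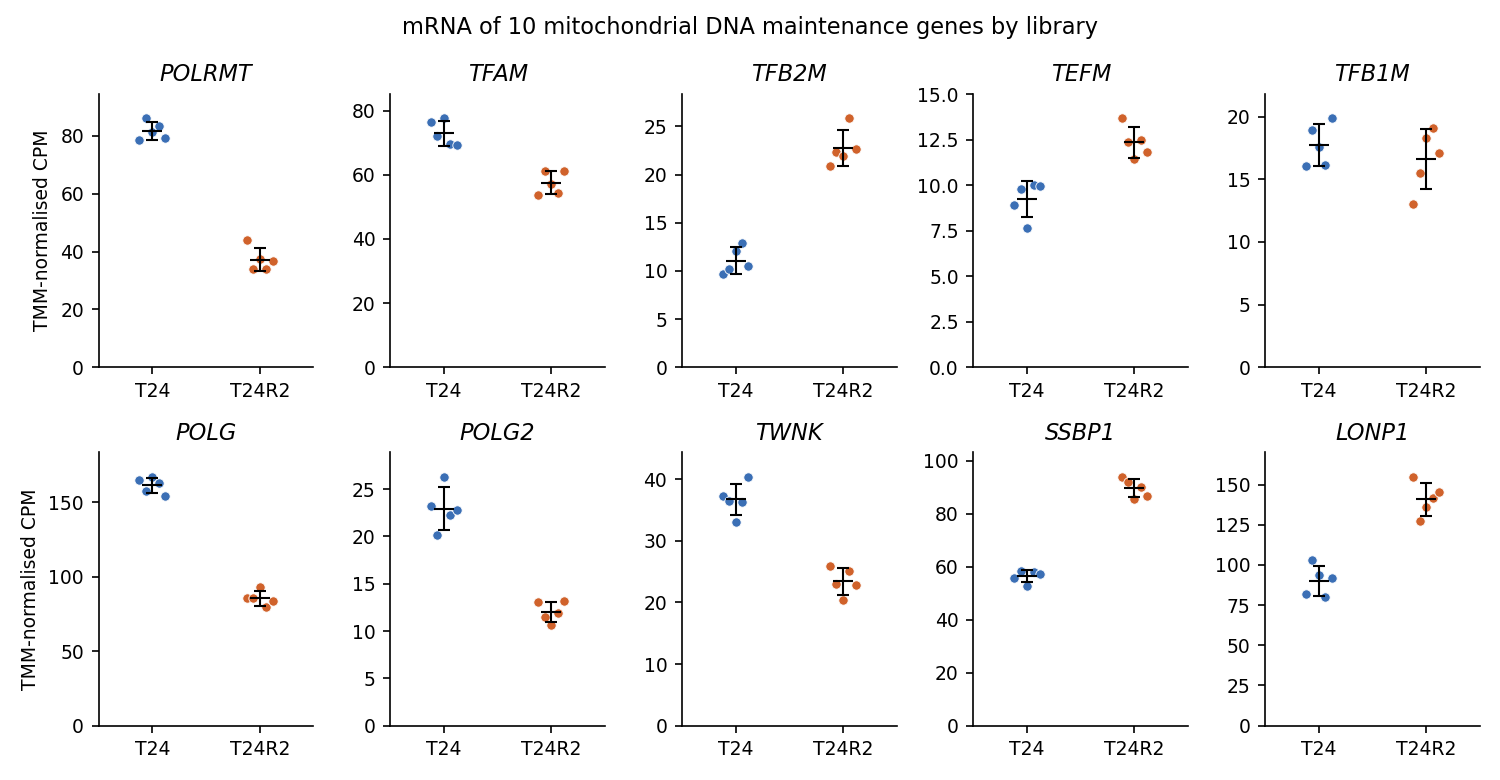
TMM-normalised CPM of the 10 genes in each library, with one panel a gene, an axis from 0, one point a library (5 a line) and bars for the mean and SD. POLRMT lies at 78.7 to 86.1 CPM in T24 and at 33.8 to 43.9 CPM in T24R2, TFB2M moves the other way, and TFB1M is the single panel in which the lines overlap.

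Both subunits of the mtDNA polymerase were lower in T24R2, to a like degree. POLG (chr15:89305198-89334861, minus strand), the catalytic subunit, was at 165, 158, 167, 163 and 154 CPM in T24 and at 85.5, 85.5, 92.9, 79.7 and 83.4 CPM in T24R2. POLG2 (chr17:64477785-64497054, minus strand), the processivity subunit, was at 23.2, 20.1, 26.3, 22.3 and 22.8 CPM in T24 and at 13.03, 11.4, 10.7, 11.9 and 13.2 CPM in T24R2. Neither gene's lines overlapped, and the log2 fold changes were −0.92 ± 0.05 for POLG and −0.93 ± 0.10 for POLG2.

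The helicase and the single-strand binding protein of the same replication fork went in opposite directions. TWNK (chr10:100987367-100994403, plus strand) was at 37.3, 36.5, 33.1, 36.4 and 40.4 CPM in T24 and 25.9, 23.0, 20.3, 25.0 and 22.9 CPM in T24R2, a log2 fold change of −0.65 ± 0.08. SSBP1 (chr7:141738334-141787922, plus strand) was at 55.9, 58.3, 52.9, 58.0 and 57.4 CPM in T24 and 94.0, 92.1, 85.6, 90.1 and 86.7 CPM in T24R2, a log2 fold change of 0.67 ± 0.05. Every T24R2 library was below every T24 library for TWNK and above every T24 library for SSBP1.

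LONP1 (chr19:5691834-5720572, minus strand), the matrix protease that removes TFAM, was at 82.1, 103, 93.6, 80.1 and 92.1 CPM in T24 and 155, 127, 136, 142 and 145 CPM in T24R2. The lines did not overlap and the log2 fold change was 0.64 ± 0.06. Replicate 1 of T24R2 had the highest LONP1, SSBP1, TEFM and TWNK and also the highest POLRMT of its line.

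By the call rule, 7 of the 10 genes differed, 3 higher and 4 lower in T24R2. Over all tested genes the rule called 51.4%, with 24.9% higher and 26.5% lower. Without TMM scaling, which moved the median of all genes to 0.18, the split was 4 higher and 3 lower among the 10, as TEFM passed and TWNK did not, and 5206 higher and 3431 lower over all genes in place of 4027 and 4282. The lines' CPM values did not overlap for 9 of the 10, 4 higher and 5 lower, against 61.2% of all tested genes. The median log2 fold change of the 10 was −0.22, beside 0.01 over all genes. LONP1 at 0.64 and TWNK at −0.65 were the called genes nearest to the 0.5 limit, and TEFM at 0.41 was the nearest one inside it. These counts describe genes that were picked from this comparison.

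**Figure D2:**
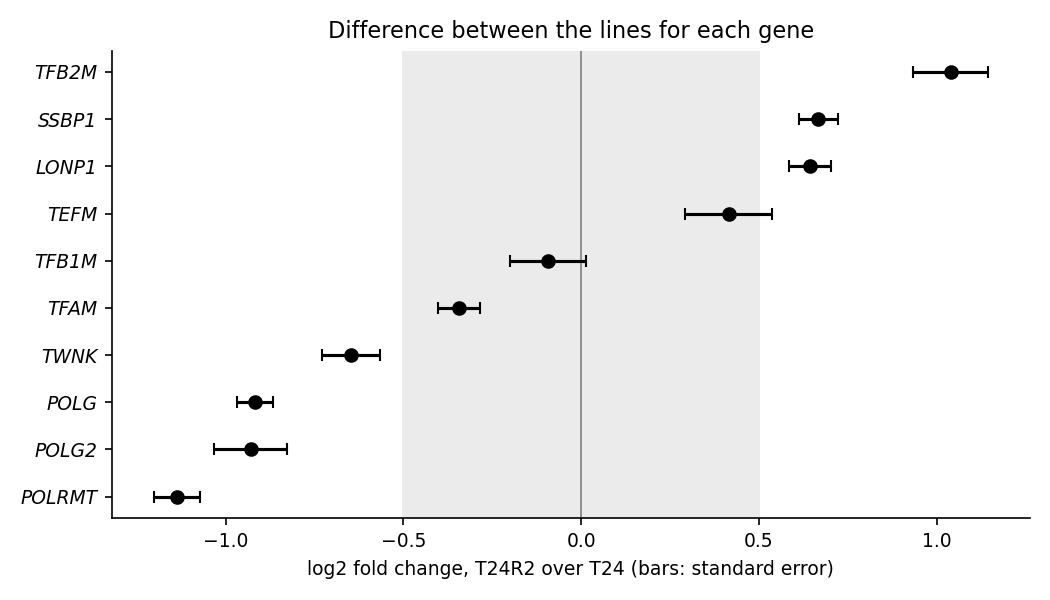
Log2 fold change of T24R2 over T24 for each of the 10 genes, with bars for the standard error and the band of −0.5 to 0.5 that the call rule leaves out in grey. TFB2M at 1.04 and POLRMT at −1.14 are the ends of the range, and TEFM, TFB1M and TFAM lie inside the band.

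Levels were ordered as CPM per kilobase of exon, since longer genes collect more fragments. The length used is that of all annotated exons of a gene together, which can exceed that of the mRNA expressed. The order of genes and the size of the ratios between them thus depend on the annotation. How a ratio differs between the lines does not depend on the length used. In T24 the order of mean levels was POLG at 20.9, LONP1 at 17.9, POLRMT at 16.1, TFAM at 13.8, SSBP1 at 11.4, TWNK at 8.88, TFB2M at 6.21, POLG2 at 5.05, TFB1M at 4.31 and TEFM at 3.51 CPM per kilobase. The library ranges overlapped between POLG and LONP1, LONP1 and POLRMT, TFB2M and POLG2, and POLG2 and TFB1M. In T24R2 the order was LONP1 at 28.0, SSBP1 at 18.0, TFB2M at 12.7, POLG at 11.1, TFAM at 10.9, POLRMT at 7.34, TWNK at 5.67, TEFM at 4.68, TFB1M at 4.04 and POLG2 at 2.65 CPM per kilobase. There the neighbours TFB2M and POLG, POLG and TFAM, TWNK and TEFM, and TEFM and TFB1M overlapped. POLRMT thus stood in place 3 in T24 and in place 6 in T24R2, and POLG2 was the lowest of the 10 in T24R2.

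The balance between partners within a library does not depend on how libraries are scaled. The ratio of TFB2M to POLRMT, per kilobase, was 0.384 ± 0.0455 in T24 and 1.76 ± 0.292 in T24R2 (SD, n = 5), or 4.57 times as high. TFAM to POLRMT went from 0.857 ± 0.0628 to 1.4996 ± 0.208 and TEFM to POLRMT from 0.217 ± 0.0226 to 0.640 ± 0.0568. For each of these 3 ratios the lowest T24R2 library was above the highest T24 library.

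At the replication fork, the ratio of POLG2 to POLG was 0.241 ± 0.0191 in T24 and 0.240 ± 0.0296 in T24R2, a difference smaller than the spread within either line. SSBP1 to TWNK went from 1.28 ± 0.0661 to 3.20 ± 0.215 and SSBP1 to POLG from 0.543 ± 0.0354 to 1.63 ± 0.125. LONP1 to its substrate TFAM went from 1.30 ± 0.150 to 2.59 ± 0.313. TFB1M to TFB2M went from 0.705 ± 0.119 to 0.317 ± 0.0344.

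The transcripts that POLRMT makes were not part of the list and were tested. Of the 13 mRNAs of the mitochondrial genome, 1 was called higher in T24R2 and 2 were called lower, and both rRNAs were called lower. That is 23.1% of the mRNAs and 33.3% of the 15 transcripts, beside 51.4% of all tested genes. Over these 15 transcripts the split of 1 higher and 4 lower became 2 and 3 with upper-quartile scaling and 2 and 2 without scaling. The median log2 fold change of the 13 mRNAs was −0.20. Summed mitochondrial mRNA came to 298 ± 16.6 counts per POLRMT count in T24 and 559 ± 83.9 in T24R2, and the lines did not overlap. The share of all counts on the 13 mRNAs was 2.29% ± 0.0982 in T24 and 2.17% ± 0.235 in T24R2, with overlapping lines. The ratio therefore mostly restates the lower counts of POLRMT, a gene chosen from this comparison, and is a description.

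MT-CO3, a subunit of cytochrome c oxidase, was the mRNA called higher. It was at 1179.7, 1203, 1151, 1065 and 1109 CPM in T24 and at 2168, 2213, 2629, 2297 and 2337 CPM in T24R2. The log2 fold change was 1.03 ± 0.05 (adjusted p = 1.6e-22, edgeR), and all 5 T24R2 libraries were above all T24 libraries. Within a library, MT-CO3 counts per 100 counts of MT-CO1, the catalytic subunit of the same enzyme, went from 12.6 ± 0.169 to 35.4 ± 1.75 (exact two-sided permutation p = 0.00794, adjusted over 8 quantities 0.0212, the smallest raw p that 5 against 5 can give). MT-CO1 itself had a log2 fold change of −0.45, so the ratio sets a rise against a fall in the same libraries. Its separation restates those differences and is no separate support.

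MT-ATP6, an ATP synthase subunit whose gene lies next to MT-CO3, had a log2 fold change of 0.47 ± 0.06, just below the 0.5 of the call rule. MT-CO1 and MT-CO2, the other mitochondrial subunits of cytochrome c oxidase, had log2 fold changes of −0.45 ± 0.05 and −0.45 ± 0.05. The lines of these 3 mRNAs did not overlap. Without replicate 3 of T24R2, MT-CO1 and MT-CO2 were called lower at −0.54 and −0.54, and without replicate 1 of T24R2, MT-ATP6 was called higher at 0.52.

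MT-ND4 and MT-ND4L, complex I subunits read from a shared mRNA, were the 2 mRNAs called lower. MT-ND4 was at 3782, 3736, 3474, 3311 and 3403 CPM in T24 and 2028, 2047, 2837, 2196 and 2229 CPM in T24R2, a log2 difference of −0.64 ± 0.06 (adjusted p = 4.8e-13, edgeR). MT-ND4L was at 677, 758, 668, 649 and 638 CPM in T24 and 408, 379, 486, 399 and 430.5 CPM in T24R2, a log2 difference of −0.69 ± 0.05 (adjusted p = 4.1e-15, edgeR). The lines were separate for both.

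The other complex I mRNAs and MT-CYB had small differences and overlapping lines. Their log2 fold changes were −0.05 ± 0.05 for MT-ND1, −0.19 ± 0.05 for MT-ND2, 0.01 ± 0.08 for MT-ND3, −0.20 ± 0.06 for MT-ND5, −0.20 ± 0.06 for MT-ND6 and −0.22 ± 0.06 for MT-CYB. MT-ATP8 was at 0.02 ± 0.08, and none of these 7 passed the call rule. MT-ATP8 shares 46 bases with MT-ATP6, which was at 0.47 ± 0.06, and why this overlapping pair differed was not tested.

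The small-subunit rRNA MT-RNR1 was at 495, 459.9, 489, 478 and 465 CPM in T24 and 263, 249, 263, 264 and 407 CPM in T24R2. All T24R2 libraries were lower, although replicate 5 of T24R2 lay well above the other 4 of its line, and the log2 fold change was −0.72 ± 0.07 (adjusted p = 2.3e-11, edgeR). The large-subunit rRNA MT-RNR2 was at 3838, 3081, 3465, 3791 and 3243 CPM in T24 and 2326, 2201, 2596, 2326 and 2568 CPM in T24R2, a log2 difference of −0.54 ± 0.05 (adjusted p = 2.0e-12, edgeR). MT-RNR2 was near the limit of the rule and was not called without replicate 1 of T24, at −0.50. Both rRNA counts depend on how rRNA was treated in the library preparation, which is not given in the sources used here.

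**Figure D3:**
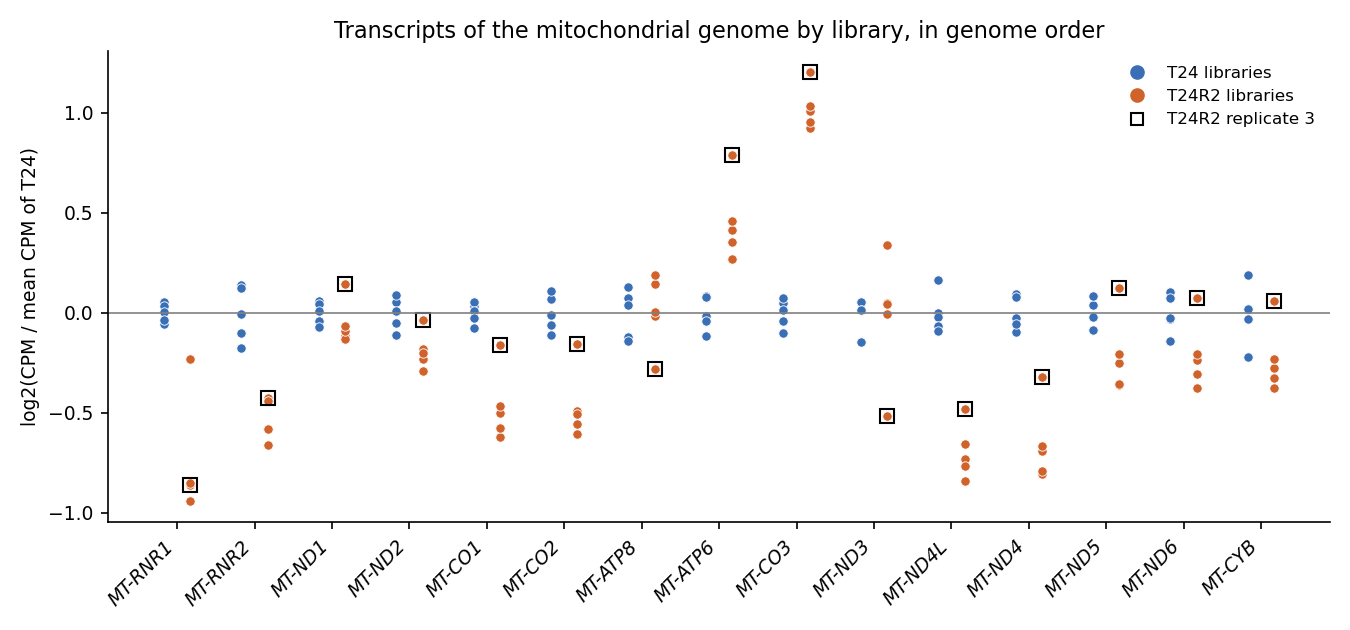
Log2 of each library's CPM over the T24 mean for the 13 mRNAs and 2 rRNAs in genome order, with 5 points a line and replicate 3 of T24R2 boxed. MT-CO3 and MT-ATP6 stand above the T24 libraries and MT-RNR1, MT-RNR2, MT-ND4L and MT-ND4 below them, and the boxed library is the highest of T24R2 for most mRNAs.

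Nuclear copies of mitochondrial sequence can affect these counts, because only uniquely mapped reads were kept. MTCO1P12 on chromosome 1 had a mean of 448 counts in T24 and 265 in T24R2, MTATP6P1 beside it 568 and 527 counts, and MTCO3P12 had 19.4 and 37.8 counts. Copies of MT-CO2, MT-ND2, MT-ND4, MT-ND5 and MT-ND6 also had counts, with means of 39.6 in T24 and 16.8 in T24R2 for MTND4P12. How many reads of these mRNAs and of MT-CO1, MT-ATP6 and MT-CO3 were lost to such copies was not tested, so their levels are uncertain. The copies were looked up after the values of the mitochondrial mRNAs were seen.

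The mitochondrial genome took 2.79% ± 0.0963 of all counts in T24 and 2.55% ± 0.250 in T24R2 (SD, n = 5), a difference that did not pass the exact two-sided permutation test (p = 0.0873, adjusted 0.116). Replicate 3 of T24R2 had the highest share of all 10 libraries, at 2.97%. Without it the difference was −0.339 percentage points, with an exact permutation p of 0.0159, against −0.235 with it. On the TMM scale the summed level was 29598.6 ± 1164 CPM in T24 and 24226.3 ± 2591 CPM in T24R2 (exact permutation p = 0.0159, adjusted 0.0254), so the call on the total output depends on the scaling.

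Within mitochondrial RNA the mean ratio of rRNA to mRNA counts was lower in T24R2. There were 16.4 ± 1.84 rRNA counts per 100 mRNA counts in T24 and 13.2 ± 1.13 in T24R2 (exact permutation p = 0.0159, adjusted 0.0254). The lines overlapped, at 13.8 to 18.8 in T24 and 11.6 to 14.6 in T24R2. This ratio too depends on how rRNA was treated in the library preparation. MT-ND6 is the one mRNA encoded on the other strand and is made from the light-strand promoter. It came to 3.04 ± 0.0832 counts per 100 counts of the other 12 mRNAs in T24 and 3.12 ± 0.0705 in T24R2, a difference that did not pass the exact permutation test (p = 0.135, adjusted 0.154). MT-ND6 lies opposite the heavy-strand precursor RNA, and since the library kit is not described as keeping strand, reads of both cannot be told apart in this count.

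Of the 22 mitochondrial tRNA genes, 16 had enough counts to be tested, of which 4 were called higher and 9 lower, or 81.2% beside 51.4% of all tested genes. MT-TS1 had the most counts, with a mean of 916 CPM in T24 and 618 CPM in T24R2 and a log2 fold change of −0.57 ± 0.04. It and 5 more of the tested tRNA genes that lie on the minus strand, MT-TC, MT-TN, MT-TP, MT-TQ and MT-TY, had 11.9 to 916 CPM in T24, whereas no tested tRNA gene on the plus strand exceeded a mean of 6.43 CPM there. The minus-strand genes MT-TA and MT-TE were also low, at 1.65 and 3.08 CPM in T24. The fragments were counted with strand option 1 although the library kit is not described as keeping strand, so reads of a tRNA gene and of the precursor RNA opposite to it cannot be told apart. These tRNA genes were named after their values were seen.

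The other nuclear genes of the pathway were taken from 8 lists with 90 genes, of which 88 were tested. The call rule was passed by 28 in the higher direction and 9 in the lower direction, or 42.0% of those tested against 51.4% of all genes, and their median log2 fold change was 0.21. The lists were written with earlier results of these data known.

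Among 9 other mtDNA replication and repair genes, 2 were higher, 2 were lower and 5 were not called, with a median of −0.06. EXOG, a mitochondrial exonuclease of DNA repair, rose from 8.68 ± 1.61 to 21.5 ± 3.01 CPM, a log2 fold change of 1.31 ± 0.12 (adjusted p = 1.8e-12, edgeR). DNA2, a nuclease and helicase of the nucleus and mitochondria, fell with a log2 fold change of −0.9998 ± 0.11, and MGME1, which trims the ends of replicated mtDNA, fell with −0.87 ± 0.07. TOP1MT, the mitochondrial topoisomerase, had a log2 fold change of 0.29 ± 0.07 and did not pass the rule.

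Among 12 genes that bear on the nucleotide supply of mitochondria, 5 were higher and 1 was lower. Their median log2 fold change was 0.33. TYMP, thymidine phosphorylase, which breaks thymidine down, fell from 24.7 ± 4.90 to 1.75 ± 0.726 CPM. Its log2 fold change was −3.79 ± 0.18 (adjusted p = 4.3e-21, edgeR). SLC25A4, the adenine nucleotide carrier, rose with 0.93 ± 0.09 and RRM2B, a ribonucleotide reductase subunit, with 0.53 ± 0.08. The lines did not overlap for any of these 3 genes.

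The 9 nucleoid and termination genes had the highest share of calls among the lists, with 7 higher and 1 lower and a median log2 fold change of 0.77. MTERF2, one of the mitochondrial termination factor family, rose with 0.89 ± 0.13, and so did MTERF4, a member of that family that acts on the ribosome, with 0.78 ± 0.09. ATAD3B, a membrane ATPase associated with nucleoids, rose from 34.9 ± 2.53 to 63.8 ± 3.76 CPM with 0.87 ± 0.07. MRPL12, a ribosomal protein reported to bind POLRMT, fell from 16.0 ± 2.22 to 9.13 ± 3.04 CPM with −0.81 ± 0.15. MTERF1, which binds at the end of the rRNA genes, rose with 1.29 ± 0.15, but from a low level of 5.68 ± 1.47 CPM. MTERF1 and MTERF4 were named after their values were seen.

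Among 20 genes of mitochondrial RNA processing and stability, 8 were higher and 1 was lower, with a median of 0.41. HSD17B10, a subunit of the mitochondrial RNase P, rose from 30.2 ± 2.40 to 71.0 ± 7.01 CPM, a log2 fold change of 1.24 ± 0.07 (adjusted p = 1.3e-18, edgeR). FASTKD2, an RNA-binding protein needed for the large-subunit rRNA, rose with 0.96 ± 0.07. REXO2, which degrades short RNAs in mitochondria, fell with −0.89 ± 0.07. LRPPRC, which stabilises mitochondrial mRNAs, rose with 0.75 ± 0.05 and was named after its value was seen.

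Of 12 genes of rRNA maturation, 11 were tested and 1 was higher and 2 were lower, with a median of 0.13. RPUSD4, a pseudouridine synthase of the large-subunit rRNA, fell with −1.16 ± 0.08 and METTL15, a methyltransferase of the small-subunit rRNA, with −1.10 ± 0.10, while TRMT61B rose with 0.85 ± 0.11. Among 8 other mitochondrial proteases 2 were called, both higher, CLPX with 0.81 ± 0.06 and PITRM1 with 0.63 ± 0.05, and the median was 0.07.

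Of 11 nuclear regulators of mitochondrial genes, 10 were tested and 2 were called, both higher, with a median of −0.26. NRF1, whose letters the POLRMT, TFB2M and TFB1M promoters hold, was at 17.8 ± 1.89 CPM in T24 and 17.7 ± 3.00 CPM in T24R2, a log2 fold change of −0.01 ± 0.11 with overlapping lines. GABPA, an ETS-family activator of the same kind of promoter, rose from 56.6 ± 5.31 to 92.6 ± 3.96 CPM, a log2 fold change of 0.71 ± 0.06 (adjusted p = 1.0e-13, edgeR). The coactivator PPARGC1A was too low to test, with a mean of 0.279 CPM in T24 and 0 in T24R2.

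Of 9 genes that follow the amount of mitochondria, 1 was higher and 2 were lower, with a median of 0.15. CS, citrate synthase, fell from 181 ± 9.67 to 108 ± 3.86 CPM, a log2 fold change of −0.75 ± 0.05, and VDAC2, an outer membrane channel, fell with −0.52 ± 0.05. HSPA9, the matrix chaperone, rose from 199 ± 9.97 to 396 ± 5.61 CPM with 1.00 ± 0.04. No DNA was measured, so the mtDNA copy number of the lines was not tested.

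**Figure D4:**
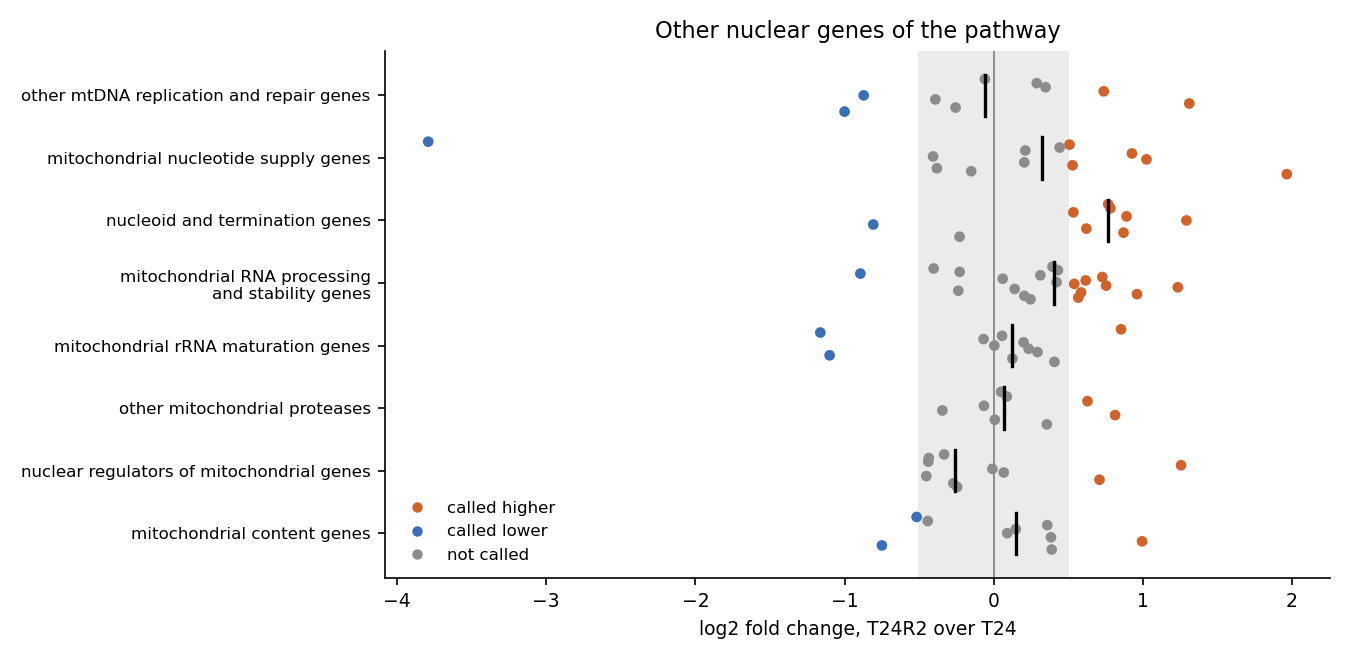
Log2 fold change of T24R2 over T24 for the 88 tested genes of the 8 lists, with one point a gene, black bars for the list medians and the band of −0.5 to 0.5 in grey. The nucleoid and termination list sits furthest to the right with a median of 0.77, and TYMP at −3.79 is the point furthest to the left.

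Genes beside each other on a chromosome can differ together, so the 5 nearest tested genes on each side were set beside each of the 10. Around POLRMT, 3 were called higher and 4 lower with a median log2 fold change of −0.14. With 10 genes on each side of POLRMT, 6 were called higher and 9 lower with a median of −0.28. Its nearest tested neighbours were ENSG00000267036 on the lower-coordinate side at 0.34 ± 0.31 and RNF126, a ubiquitin ligase gene, on the other at 0.14 ± 0.06, and neither was called. BSG, a neighbour on the lower-coordinate side, fell with −1.71 ± 0.04 and its antisense gene BSG-AS1 with −4.20 ± 0.29, the largest difference among the 10 neighbours.

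Over all 10 genes, 59 of the 100 neighbours were called, 28 higher and 31 lower, beside 51.4% of all tested genes. Some genes had called neighbours in a single direction, the same as their own. All 7 called neighbours of POLG2 and all 6 of TWNK were lower, with medians of −0.78 and −0.67, and all 7 called neighbours of LONP1 were higher with a median of 0.59. POLG had 4 called neighbours, all lower, with a median of −0.39. With 10 genes on each side, TWNK had 3 called higher and 8 lower, POLG 2 and 8, and POLG2 1 and 12. LONP1 then had 10 called higher and 0 lower. DDX5, the RNA helicase gene 11.1 kb from POLG2, had −0.78 ± 0.04 and MILR1 on the other side −0.79 ± 0.28. LZTS2, 9.25 kb from TWNK, had −1.16 ± 0.05 and SEMA4G on the other side −0.67 ± 0.15. MRPL43, which starts 0.148 kb from TWNK on the opposite strand, had −1.18 ± 0.07. Beside POLG, FANCI was called lower at −0.57 ± 0.05 and TICRR was not called. Beside LONP1, HSD11B1L had 1.15 ± 0.24 and PRR22 3.02 ± 0.38, both at low levels. Whether POLG2, TWNK, POLG and LONP1 share a cause with these neighbours was not tested.

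The called neighbours of TFB2M, TFB1M, TFAM, SSBP1 and TEFM went in both directions. TFB2M starts 0.183 kb from CNST, which was read in the opposite direction and had a log2 fold change of 0.37 ± 0.09, and SMYD3 on its other side had −0.12 ± 0.08. TFB1M had 6 neighbours higher and 1 lower with a median of 0.75, TFAM 3 and 3 with a median of −0.04, and SSBP1 5 and 3 with a median of 0.49. TFB2M had 3 higher and 1 lower with a median of 0.37. TEFM had 1 higher and 2 lower with a median of −0.15. The nearest neighbours of TFB1M were ENSG00000235381 at 1.65 ± 0.33 and ARID1B at 0.79 ± 0.06, both called higher, and those of SSBP1 were DENND11 at 0.45 ± 0.14 and TAS2R4, a gene with few counts, at 1.78 ± 0.43. Beside TEFM, ENSG00000275185 was called higher at 0.64 ± 0.20 and ENSG00000265334 had −0.18 ± 0.27. The nearest called neighbour of TFAM was BICC1 at −2.99 ± 0.08, and UBE2D1 on its other side had −0.04 ± 0.10.

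**Figure D5:**
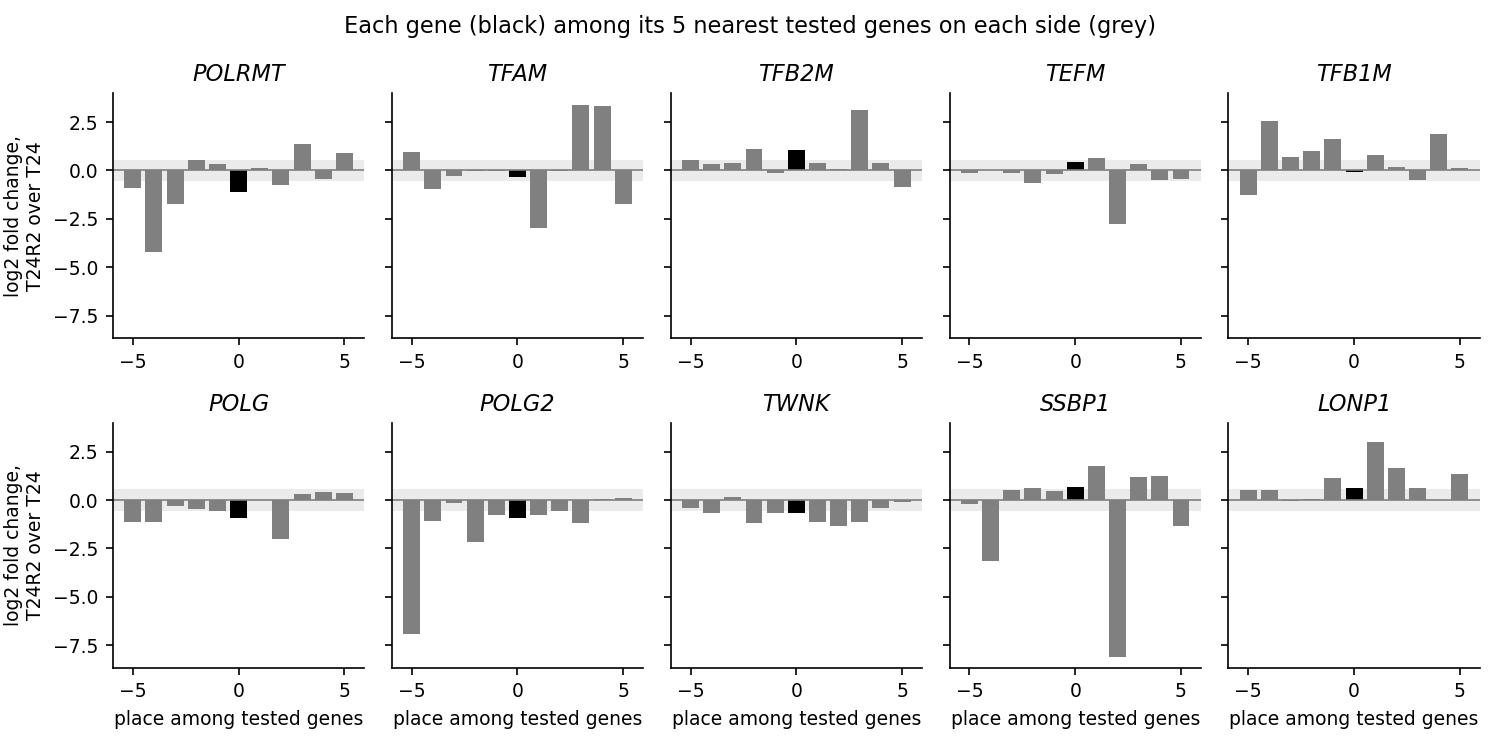
Log2 fold change of each of the 10 genes (black bar, place 0) and of its 5 nearest tested genes on each side (grey bars, places −5 to 5 by start position), with the band of −0.5 to 0.5 in grey. POLRMT lies between neighbours of both signs, whereas the called neighbours of POLG2, TWNK and POLG are below 0 and those of LONP1 above it.

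Some exons lie opposite exons of a gene on the other strand, where reads of both genes cannot be told apart with a kit not described as keeping strand. For POLRMT, TFAM, TFB2M and POLG2 no such overlap was found. TFB1M shares 30.7% of its exon length with TIAM2, and if all TIAM2 counts belonged to TFB1M's overlap and were taken off, the log2 ratio of TFB1M would be −0.88 in place of −0.09. TEFM shares 20.5% with ENSG00000275185, and its log2 ratio of mean CPM would be 0.28 in place of 0.42. POLG shares 5.95% with FANCI, TWNK 3.60% with MRPL43, LONP1 0.835% with RPL36 and SSBP1 0.261% with WEE2-AS1. The counts of FANCI, MRPL43 and RPL36 were too high to be taken off in this way. Their mean counts in T24R2 were 1065, 339 and 4066, beside 926, 255 and 1528 for POLG, TWNK and LONP1. What the shared exons add to the counts of POLG, TWNK and LONP1 was therefore not tested.

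The 5 tested genes whose levels followed POLRMT most closely over the 10 libraries were MRPL43, GUSB, SLC12A4, PPDPF and SFXN3. Likeness was the root mean square difference of log2 CPM after centring each gene on its mean over the libraries, and it was 0.0432 for MRPL43, a mitochondrial ribosomal protein gene, and 0.0562 for GUSB, a lysosomal enzyme gene. MRPL43 went from a mean of 70.9 to 31.3 CPM. MRPL43 and SFXN3 are also among the 5 nearest tested genes on each side of TWNK, and MRPL43 starts 0.148 kb from it. By the same measure POLG ranked 368th and POLG2 674th among the tested genes, with 0.151 and 0.183, and TFB2M 14133rd with 1.09. With 2 lines, this measure reflects mostly the size of the difference between them.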

How the data were processed

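RNA-seq was analysed for 5 T24 and 5 T24R2 libraries. Alignment to hg38 was done by the authors with STAR 2.7.0, and SAMtools 1.10 served to keep unique alignments and drop duplicates. The authors deposited raw fragment counts per gene of GENCODE 39 from featureCounts 2.0.1 (strand option 1). Duplicate removal can lower the counts of abundant transcripts such as those of mitochondria.

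Counts were tested in R 4.3.3 with edgeR 4.0.16 (filterByExpr, TMM, glmQLFit, glmQLFTest) and Benjamini-Hochberg adjustment over 16181 genes. CPM used TMM-scaled library sizes. Shares were compared by exact two-sided permutation tests over libraries in SciPy 1.17.1. Alternatives were DESeq2 1.42.0, limma-voom 3.58.1, other scalings, filters and thresholds, a replicate block and leaving out each library. Total counts per library limit the precision of low genes. Fits were tested on simulated counts.

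The 10 genes and the lists were chosen with earlier results of these data known. Besides the 10 genes and the mitochondrial mRNAs and rRNAs, the text names at most 3 called genes per list, those with the largest changes whose mean reached 10 CPM, plus NRF1, GABPA, PPARGC1A and TOP1MT, the tested genes next to each of the 10 on both sides, the largest change near POLRMT, genes overlapping on the opposite strand and the 5 genes most like POLRMT. BSG was named after its value was seen, as were the genes said to be so in the report. Marker genes served to check the label. Sequences came from RefSeq (GRCh38.p14) and hg38.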

Additional observations from a re-analysis of the deposited data

Results flagged for a closer look

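In 52 comparisons of the highest or lowest library of a line with the other 4, 6 had a gap that was large for a group of 5, where chance gives about 1 in 20, or 2.6. Replicate 3 of T24R2 stood above the rest of its line for MT-ND1, at 937.67 CPM against 773.01 to 809.56 CPM, for MT-ND4, at 2837 CPM against 2028.5 to 2228.8 CPM, for MT-ND5, at 1839.7 CPM against 1316.6 to 1463.6 CPM, and for MT-CO2, at 2683.9 CPM against 1959 to 2123 CPM. Replicate 5 of T24R2 stood above the rest for MT-RNR1, at 407.09 CPM against 248.89 to 264.45 CPM. Replicate 3 of T24 stood below the rest for MT-ND3, at 326.57 CPM against 365.26 to 375 CPM. No value of the 10 nuclear genes was among them.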

How the results depend on the processing

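Without scaling beyond library size, the median over all genes (log2) moved from 0.01 to 0.18. POLRMT was then −0.97, TWNK −0.48, TEFM 0.58 and TFB1M 0.07, a change of sign for TFB1M, and MT-ND4 (−0.48) and MT-RNR2 (−0.37) lost their call while MT-ATP6 (0.63) gained one. With upper-quartile scaling MT-RNR2 was −0.46 and MT-ATP6 0.54. With an absolute log2 fold change over 1 the calls went from 8309 to 4211 over all genes, from 7 to 2 of the 10 genes (TFB2M and POLRMT), from 5 to 1 of the mitochondrial mRNAs and rRNAs, from 37 to 9 of the other pathway genes and from 59 to 35 of the neighbours. With no fold change minimum they were 12 mitochondrial transcripts and 74 pathway genes. Limited to a mean count of 100 or more, they were 4991 genes and 32 neighbours, and with 10 neighbours on each side 117. Leaving out each library gave 8240 to 8292 genes, 7 of the 10 genes in each case, 4 to 7 mitochondrial transcripts, 35 to 37 pathway genes and 56 to 61 neighbours. The difference in mitochondrial share was −0.537 percentage points with TMM-scaled library sizes (chosen after seeing the data), and −0.339 to −0.184 without each library. The cause of these shifts was not tested.

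Replicate numbers did not pair the samples, since deviations of same-numbered libraries had correlations of −0.0210 to 0.0155. With a replicate block 8240 genes, 7 of the 10 genes, 5 mitochondrial transcripts, 37 pathway genes and 58 neighbours were called.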
